A study of Mus musculus with 8 samples.

Results

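The 10 genes described here act in the horny layer, the dead outer sheet of the epidermis and of keratinised mouth lining, and none of them is a keratin. They were taken by name: filaggrin (Flg), involucrin (Ivl), Sprr1a, the transglutaminases Tgm1 and Tgm3, the proteases Casp14 and Asprv1, Krtdap, suprabasin (Sbsn) and Calml3. Every probe set (a group of short probes that together read 1 transcript) annotated to one of these symbols alone was read in each of the 8 arrays, which gave 15 probe sets for the 10 genes, of 34945 probe sets for 18193 genes on the array. All 10 genes lay above the level filter, as did 13586 genes in all.

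Cornification is the last step in the life of a keratinocyte. Keratin filaments are packed by filaggrin, structural proteins such as involucrin, loricrin and the small proline-rich proteins are laid down under the cell membrane, and transglutaminases join them by covalent bonds into the cornified envelope. Proteases then process filaggrin and cut the junctions that hold the dead cells together, and secreted lipids seal the spaces between them. In newborn mice this programme runs at full strength in the skin and also in the keratinised lining of the mouth, including the palate.

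RNA came from palates of newborn BALB/c pups on postnatal day 1, taken from the rear part of the palate. The dams had carried an osmotic minipump under the skin, which gave either nicotine (1.5, 3.0 or 4.5 mg/kg/day) or sterile physiological saline. All 4 groups therefore share the strain, the age and the implanted pump, and the saline group is the only control. Each group had 2 Affymetrix arrays that the labels call biological replicates. The extract protocol gives n = 2 for the pups, but neither how many pups entered an array nor how many litters they came from, so p-values measure the spread between these samples. Values below are the deposited intensities, on a linear scale, and differences are given on the log2(intensity + 16) scale after quantile normalisation. The added 16 understates the fold change of dim genes.

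The arrays differed in more than dose. Median intensities per array were 20.7 to 25.4, and actin, read at its 3' end relative to its 5' end as a measure of intact RNA, was at 1.65 and 1.74 in saline against 0.954 to 1.39 in the nicotine arrays. Summed over 6 liver markers, intensities came to 15527 and 28427 in saline, to 16487 in nicotine 1.5 replicate 2, and to 76.0 to 171 in the other 5 arrays. The 10 markers of glandular stomach summed to 10782 and 10497 in saline and to at most 182 in the nicotine arrays. The 5 lung markers summed to 9389 in nicotine 1.5 replicate 2, to 1172 to 11192 at the higher doses and to at most 90.2 in the other 3 arrays. The 7 cartilage markers summed to 8638 in nicotine 1.5 replicate 1 and to 116 to 504 in the other 7 arrays. Krt76, the keratin typical of the hard palate, lay below the level filter at 3.04 to 16, and none of 4 tooth genes or 3 salivary gland genes passed the filter. No marker was at 0, but neither was any other probe set, since the lowest value in each array was 0.79 to 1.0. In such bulk samples more cells of a type and more RNA per cell cannot be told apart.

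Nicotine 1.5 replicate 1 held the highest value of 9 of the 10 genes and of 14 of the 15 probe sets. The exception was the Casp14 probe set used in the fit, which was highest in nicotine 3.0 replicate 1. Second place was spread over the groups: it fell to nicotine 4.5 replicate 2 for Ivl, Krtdap, Sbsn and Asprv1, to a saline array for Calml3, Sprr1a and Tgm1, to nicotine 1.5 replicate 2 for Flg and to nicotine 3.0 replicate 1 for Tgm3.

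**Figure D1:**
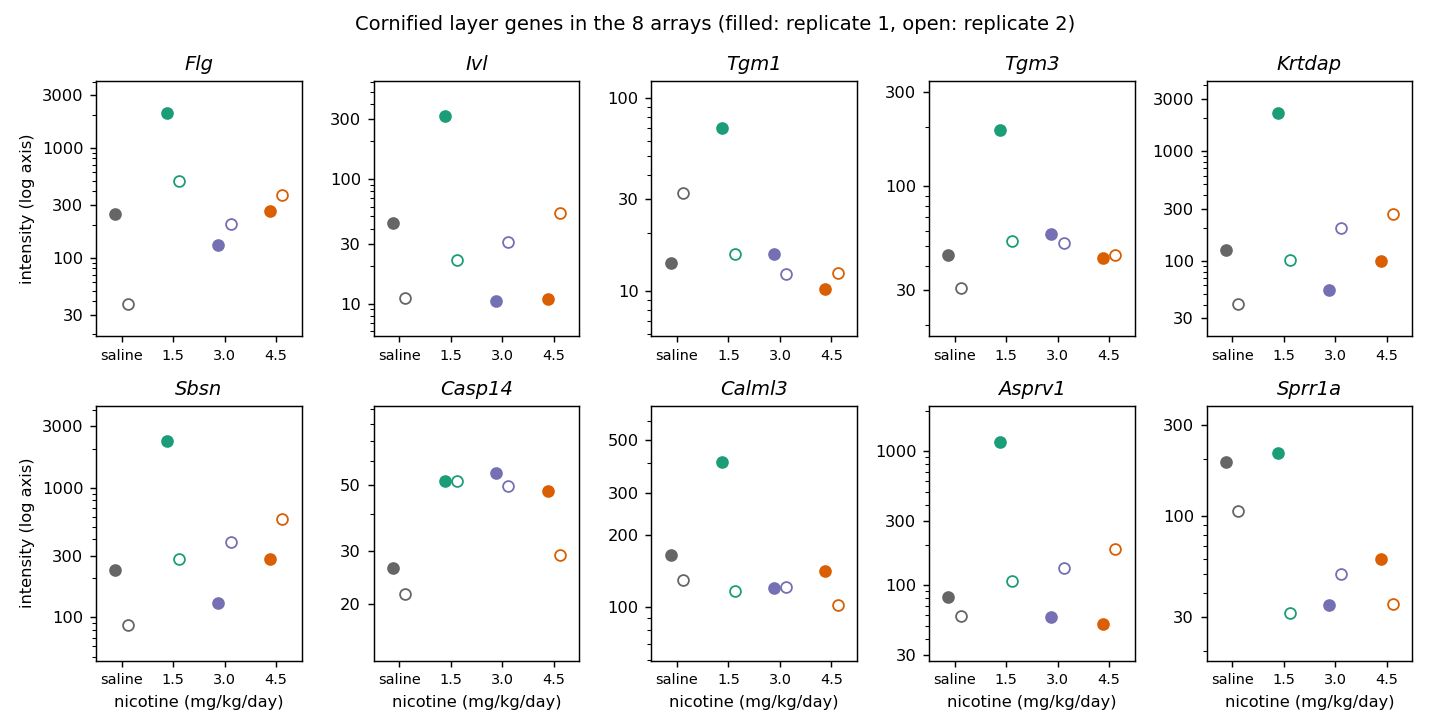
Deposited intensity (log axis) of each of the 10 genes in the 8 arrays by group (saline and nicotine at 1.5, 3.0 and 4.5 mg/kg/day), with replicate 1 as a filled and replicate 2 as an open circle. Nicotine 1.5 replicate 1 lies above the other 7 arrays for every gene but Casp14, at 2068 for Flg and 2277 for Sbsn, and is barely above saline replicate 1 for Sprr1a.

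Among the structural proteins, Flg, whose product bundles keratin filaments and is later broken down to the moisture-holding compounds of the skin, had intensities of 249 and 37.8 in saline, 2068 and 494 at nicotine 1.5, 129 and 203 at 3.0 and 266 and 372 at 4.5. Both nicotine 1.5 arrays were above the other 6, and both arrays at 4.5 were above saline. The share of all genes whose arrays separate in this way was not counted, here or for the genes below. The saline arrays themselves differed 4.72-fold after normalisation. At 1.5 mg/kg/day the log2 difference from saline was 3.28 ± 0.89 (SE, n = 2 against 2), which did not pass the test (limma, adjusted p = 0.107).

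Ivl, an early building block of the envelope, was at 44.4 and 11.1 in saline, 320 and 22.5 at nicotine 1.5, 10.5 and 31.1 at 3.0 and 10.99 and 53.7 at 4.5. Apart from the single array at 320, all groups overlapped. Its log2 difference at 1.5 mg/kg/day was 1.57 ± 1.05 (limma, adjusted p = 0.428). The other Ivl probe set was at 31.5 in the same array and at 2.07 to 5.18 in the other 7.

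Sprr1a, a small proline-rich protein that the transglutaminases join into the envelope, had intensities of 192 and 106 in saline, 214 and 31.3 at nicotine 1.5, 34.8 and 50.1 at 3.0 and 59.8 and 34.9 at 4.5. Of the 6 nicotine arrays, 5 were below both saline arrays, and only nicotine 1.5 replicate 1 was above them. The log2 difference was -0.52 ± 0.74 at 1.5 mg/kg/day, -1.33 ± 0.74 at 3.0 and -1.20 ± 0.74 at 4.5 (limma, adjusted p = 0.726, 0.309 and 0.319). Without nicotine 1.5 replicate 1, the difference of Sprr1a over the mean of the 3 doses was -1.44. With all arrays it was -1.02 ± 0.60 (limma, adjusted p = 0.292).

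The transglutaminases are the enzymes that crosslink these precursors. Tgm1, bound to the membrane, was at 14.0 and 32.3 in saline, 69.7 and 15.6 at nicotine 1.5, 15.5 and 12.2 at 3.0 and 10.3 and 12.4 at 4.5. It was dim in all arrays but 2, namely nicotine 1.5 replicate 1 and saline replicate 2. Tgm3, active in the cytosol of the upper layers, was at 45.2 and 31.0 in saline, 193 and 53.4 at nicotine 1.5, 57.5 and 52.0 at 3.0 and 43.7 and 45.3 at 4.5. The arrays of nicotine 1.5 and 3.0 were above both saline arrays for Tgm3. Differences from saline at 1.5 mg/kg/day were 0.50 ± 0.49 for Tgm1 and 1.25 ± 0.51 for Tgm3 (limma, adjusted p = 0.593 and 0.223), and the second Tgm3 probe set was likewise highest, at 47.6, in nicotine 1.5 replicate 1, with 11.6 to 19.0 elsewhere.

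Asprv1 and Casp14 encode proteases that take part in turning profilaggrin into filaggrin and its fragments. Asprv1 was at 82.0 and 58.9 in saline, 1169 and 108 at nicotine 1.5, 58.2 and 135 at 3.0 and 51.3 and 188 at 4.5. The first array of nicotine 1.5 was 6.23-fold above the next highest, and both arrays of that dose were above saline. The log2 difference was 2.35 ± 1.11 at 1.5 mg/kg/day (limma, adjusted p = 0.282).

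The 2 probe sets of Casp14 disagreed. The one used in the fit was at 26.3 and 21.7 in saline, 51.5 and 51.5 at nicotine 1.5, 55.0 and 49.7 at 3.0 and 47.8 and 29.1 at 4.5. All 6 nicotine arrays were above both saline arrays there, in a narrow range. The other probe set was at 15.2 and 7.14 in saline, 277 and 19.9 at nicotine 1.5, 10.8 and 18.3 at 3.0 and 8.40 and 17.3 at 4.5. It was 13.9-fold higher in nicotine 1.5 replicate 1 than in the next array, as most other genes of the group were high there, and it did not separate nicotine from saline. The set used in the fit carries the suffix with which Affymetrix marks probes that may also match other transcripts.

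Krtdap and Sbsn encode secreted proteins of the suprabasal epidermis. Krtdap was at 125 and 40.6 in saline, 2232 and 102 at nicotine 1.5, 55.0 and 201 at 3.0 and 99.4 and 269 at 4.5. Sbsn was at 233 and 87.5 in saline, 2277 and 281 at nicotine 1.5, 128 and 380 at 3.0 and 281 and 570 at 4.5. Both genes gave the same order at each nicotine dose: replicate 1 was the higher array at 1.5 and replicate 2 the higher at 3.0 and 4.5. The other 2 Sbsn probe sets were at 1899 and 729 in nicotine 1.5 replicate 1, against 69.3 to 422 and 20.0 to 128 in the other arrays. Differences from saline at 1.5 mg/kg/day were 2.66 ± 1.39 for Krtdap and 2.52 ± 1.05 for Sbsn (limma, adjusted p = 0.324 and 0.231).

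Calml3, a calmodulin-like calcium-binding protein of epithelia, was at 166 and 130 in saline, 405 and 117 at nicotine 1.5, 120 and 121 at 3.0 and 142 and 102 at 4.5. Apart from the array at 405, it varied little, and its difference from saline was 0.66 ± 0.54 at 1.5 mg/kg/day (limma, adjusted p = 0.520).

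Within nicotine 1.5, replicate 1 exceeded replicate 2 at least 2-fold for 9 of the 10 genes, where 3.15% of all genes tested did so. These are single arrays, so the difference has no test. It was largest for Krtdap, at 4.52 log2 units or 22.9-fold, which placed it 9th of 13586 genes ranked by this difference. Asprv1 followed at 3.57 (11.9-fold), Ivl at 3.31 (9.91-fold) and Sbsn at 3.17 (8.98-fold). Sprr1a differed by 2.48 (5.56-fold), Flg by 2.23 (4.70-fold), Calml3 by 1.87 (3.65-fold), Tgm3 by 1.77 (3.41-fold) and Tgm1 by 1.54 (2.90-fold). The Casp14 probe set in the fit differed by 0.12 (1.09-fold), and its other probe set by 3.20. The median over the 10 genes was 2.35 and that over all genes tested was 0.01. No member was at least 2-fold higher in replicate 2, where 4.47% of all genes were.

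The other pairs of arrays had medians of smaller size, but the difference was not smaller for every gene. Flg differed by 2.24 in saline and by 2.23 at nicotine 1.5. The Casp14 set in the fit differed by 0.52 at nicotine 4.5 and by 0.12 at 1.5. In saline, 4 genes were at least 2-fold higher in replicate 1 (5.15% of all genes) and 0 in replicate 2 (5.26%), with a median of 0.51. At nicotine 3.0, 0 genes were higher in replicate 1 (0.81% of all genes) and 3 in replicate 2 (0.294%), with a median of -0.49. At nicotine 4.5, 0 were higher in replicate 1 (2.28%) and 4 in replicate 2 (1.74%), with a median of -0.31.

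**Figure D2:**
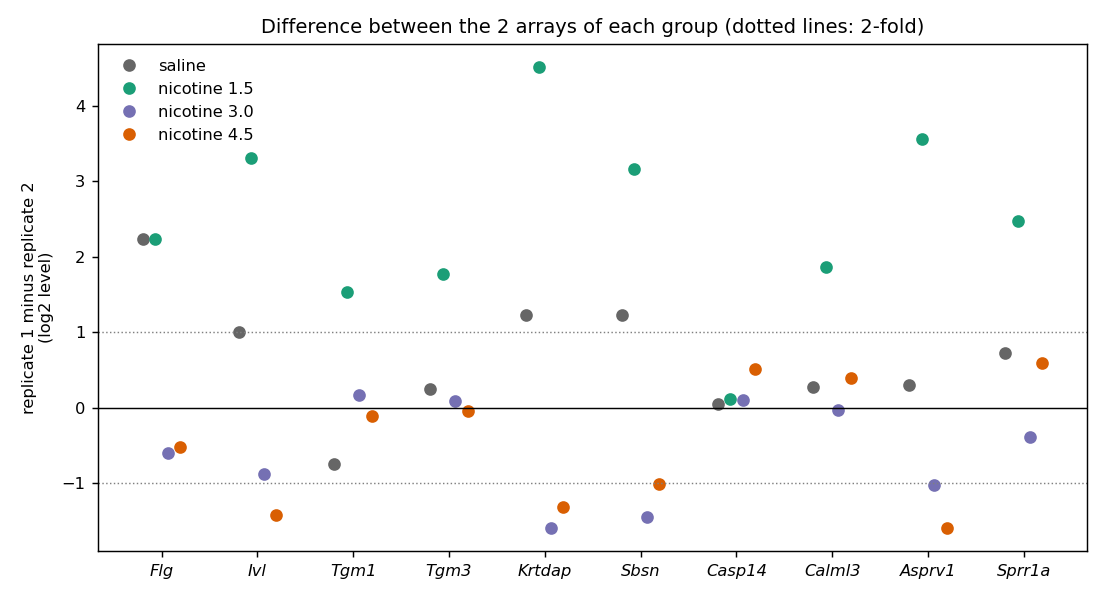
Difference between replicate 1 and replicate 2 on the log2 scale for each of the 10 genes within each of the 4 groups, 1 point a gene. The genes spread from 0.12 to 4.52 at nicotine 1.5, from -0.75 to 2.24 in saline, from -1.59 to 0.17 at 3.0 and from -1.59 to 0.59 at 4.5.

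Markers of other cell types and tissues moved with this pair. The 7 basal keratinocyte markers summed to 3565 in nicotine 1.5 replicate 1 and to 840 to 1316 in the other 7 arrays. Of these 7, Krt5, Krt14, Krt15 and Col17a1 were at least 2-fold higher in replicate 1 than in replicate 2, while Itgb4, Itga6 and Lamb3 differed by 0.71, 0.36 and -0.10. Of the 5 suprabasal skin keratins measured, Krt1 was at 3884 and Krt10 at 5367 in that array, against 34.5 to 236 and 80.0 to 349 elsewhere, and the list summed to 9429 against 150 to 687. The other 3 differed less than 2-fold between the arrays of nicotine 1.5 (Krt2 1.19-fold, Krt77 1.30-fold and Krt80 1.68-fold), and the list's median was 0.75. The 6 keratins of mouth and oesophagus lining summed to 604 against 89.9 to 219. Krt6b, at 277 against 5.42 to 14.8, made the largest part of that sum. Krt6a was at 68.15 against 25.46 to 37.6, and Krt16, which lay below the level filter, at 77.3 against 4.28 to 17.2. Krt4 was at 117 against 28.1 to 125 elsewhere and Krt13 at 48.6 against 3.33 to 42.0. Of these 6 keratins, 4 were at least 2-fold higher in replicate 1 than in replicate 2 and 0 were lower, with a median of 1.43. All 7 cartilage markers were at least 2-fold higher in replicate 1 than in replicate 2, with a median of 4.53, while all of the 6 liver, 5 lung and 4 heart markers were at least 2-fold lower. The 6 skeletal muscle markers differed little, with a median of -0.32. The part of tissue composition in the difference was not tested.

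Against saline, limma called 0 of the 10 genes at 1.5 mg/kg/day, where 2.48% of all genes tested were called. An unadjusted p under 0.05 was reached by 4 of the 10, beside 21.1% of all genes. The 4 were Flg, Tgm3, Sbsn and Casp14. Differences were positive for 9 of the 10 genes, with a median of 1.41 beside 0.04 over all genes. At 3.0 mg/kg/day limma called 0 (3.72% of all genes called), 1 of the 10 had an unadjusted p under 0.05 beside 25% of all genes, 6 differences were positive and the median was 0.47. At 4.5 it called 0 (6.87% of all genes called), 1 of the 10 had an unadjusted p under 0.05 beside 29.2% of all genes, 7 were positive and the median was 0.44. The 3 comparisons share the 2 saline arrays.

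For the mean of the 3 doses, 1 of 10 genes was called, beside 10.2% of all genes tested. Casp14 rose by 0.74 ± 0.17 (limma, adjusted p = 0.0438), with all 6 nicotine arrays above both saline arrays. The call rested on 1 probe set and on most single arrays. With the mean of both sets the difference was 0.76 and with the other set alone 0.79, and neither passed (limma, adjusted p = 0.240 and 0.457). With 1 array left out it was kept only without nicotine 4.5 replicate 2, and without any other single array the adjusted p lay between 0.0588 and 0.141. The difference of Tgm3 was 0.70 ± 0.41 with all arrays (limma, adjusted p = 0.293). It was 0.995 without nicotine 1.5 replicate 2, and 0.86 without that array and saline replicate 2. The remaining differences for the mean of the doses ran from -1.02 ± 0.60 for Sprr1a to 1.83 ± 0.73 for Flg (limma, adjusted p = 0.292 and 0.145).

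The result at 1.5 mg/kg/day depended on which of its arrays was kept. Without replicate 1, the 10 differences from saline ran from -1.77 to 2.18 with a median of 0.39, 6 were positive and the lowest limma adjusted p was 0.117. Without replicate 2, they ran from 0.72 to 4.93 with a median of 2.69, all 10 were positive and 3 were called higher: Tgm3 by 2.14, Calml3 by 1.605 and Asprv1 by 4.15 (limma, adjusted p = 0.0118, 0.0426 and 0.0474), beside 1.12% of all genes called higher in that fit. Without saline replicate 1, Flg alone was called, at 4.42 (limma, adjusted p = 0.0408), beside 2.82% of all genes called higher. Without saline replicate 2 and nicotine 1.5 replicate 2, the arrays highest in liver genes, Flg (3.31), Tgm1 (1.63) and Tgm3 (2.01) were called higher at 1.5 (limma, adjusted p = 0.0148, 0.0263 and 0.0120), beside 1.55% of all genes called higher. Sprr1a was then called lower at 3.0 by -1.69 and at 4.5 by -1.56 (limma, adjusted p = 0.0402 and 0.0413), beside 4.65% and 6.06% of all genes called lower. In such fits a group left with 1 array is taken to vary like the others. Leaving out saline replicate 2 and nicotine 1.5 replicate 2 did not free the comparison with saline from liver signal. Over the 6 liver markers, the kept saline replicate 1 summed to 15527 and the dropped nicotine 1.5 replicate 2 to 16487. The nicotine arrays that were kept summed to 76.0 to 171. The part of liver RNA in these differences was not tested.

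**Figure D3:**
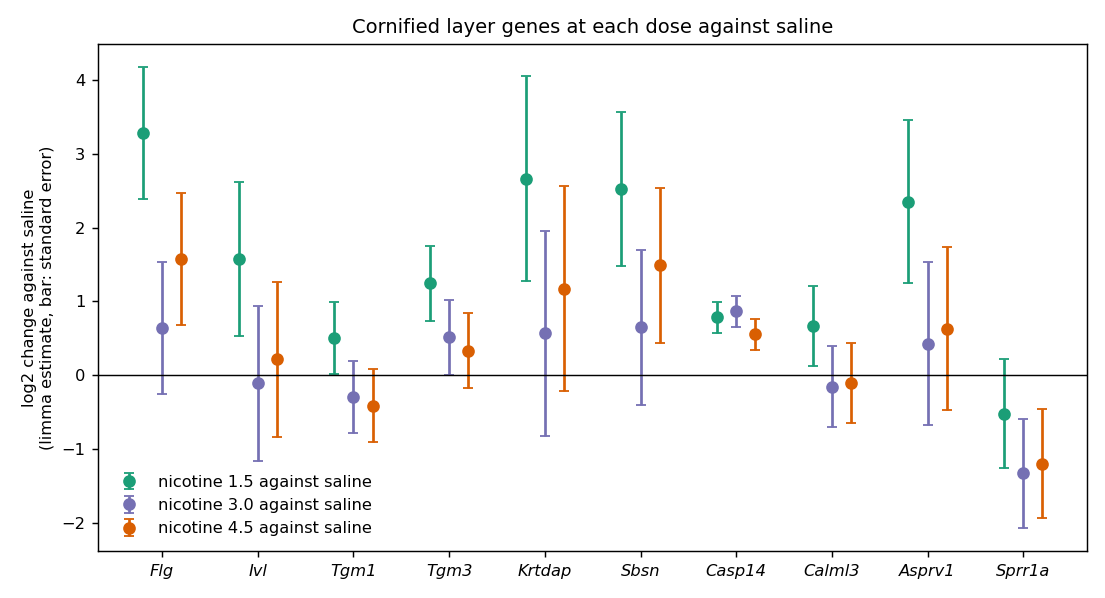
Log2 difference from saline of each of the 10 genes at nicotine 1.5, 3.0 and 4.5 mg/kg/day, with the standard error of the limma fit as bars (n = 2 arrays a group). Flg has the largest value, 3.28 at 1.5 mg/kg/day, Sprr1a lies below 0 at all 3 doses and Casp14, with the shortest bars, lies between 0.55 and 0.87.

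Between doses, 8 genes had their highest mean at 1.5 mg/kg/day, Casp14 at 3.0 and Sprr1a in saline, but no neighbours in these orders differed in the test. These orders rested in part on nicotine 1.5 replicate 1. Without it, the differences from saline at 1.5 were -0.083 for Ivl, -0.265 for Tgm1 and -0.273 for Calml3, and 6 of the 10 genes had positive ones. With all arrays, the differences from 1.5 to 3.0 ran from -2.64 for Flg to 0.08 for Casp14 (median -1.25). In this comparison limma called 0 of the 10 genes and 0% of all genes. An unadjusted p under 0.05 was reached by 1 of the 10, beside 10.8% of all genes. From 1.5 to 4.5 the differences ran from -1.72 to -0.23 (median -0.97), with 0% of all genes called. Here 0 of the 10 had an unadjusted p under 0.05, beside 7.09% of all genes. From 3.0 to 4.5 the differences ran from -0.31 to 0.94, with 0% of all genes called. Again 0 of the 10 had an unadjusted p under 0.05, beside 3.94% of all genes. Without the 2 arrays highest in liver genes, 5 genes were called lower at 3.0 than at 1.5 (Flg, Tgm1, Tgm3, Calml3 and Sprr1a), beside 1.27% of all genes in that fit, and 4 lower at 4.5 (Flg, Tgm1, Tgm3 and Calml3), beside 1.14% of all genes, with nicotine 1.5 replicate 1 then standing for its dose.

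Genes of 5 other cornification lists were compared between the same arrays. Summed intensities in nicotine 1.5 replicate 1 were above those of the other 7 arrays for 4 lists: other envelope precursors (18984 against 1454 to 4033), crosslinking and proteolysis (6488 against 1974 to 2540), barrier lipids (2048 against 722 to 1282) and corneodesmosome (5020 against 363 to 1287). The regulators of epidermal differentiation were not set apart there, at 3017 against 2055 to 3121. The counts that follow are over every listed gene with a probe set, whether or not it passed the level filter, beside 2.63% of all genes with a probe set that were at least 2-fold higher in nicotine 1.5 replicate 1 than in replicate 2. Among other envelope precursors and relatives of filaggrin, 24 of 34 were at least 2-fold higher and 0 lower, with a median of 2.61. Of the corneodesmosome genes, which build the junctions of the horny layer, 7 of 8 were higher with a median of 2.87. Of the crosslinking and protease genes 11 of 21, of the genes for barrier lipids 10 of 18, and of the regulators of epidermal differentiation 6 of 13 were higher, with medians of 1.30, 1.06 and 0.88, and 1 regulator, Hopx, was lower. The Lce and Sprr families hold close copies whose probes can match each other, so their members are not independent readings.

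**Figure D4:**
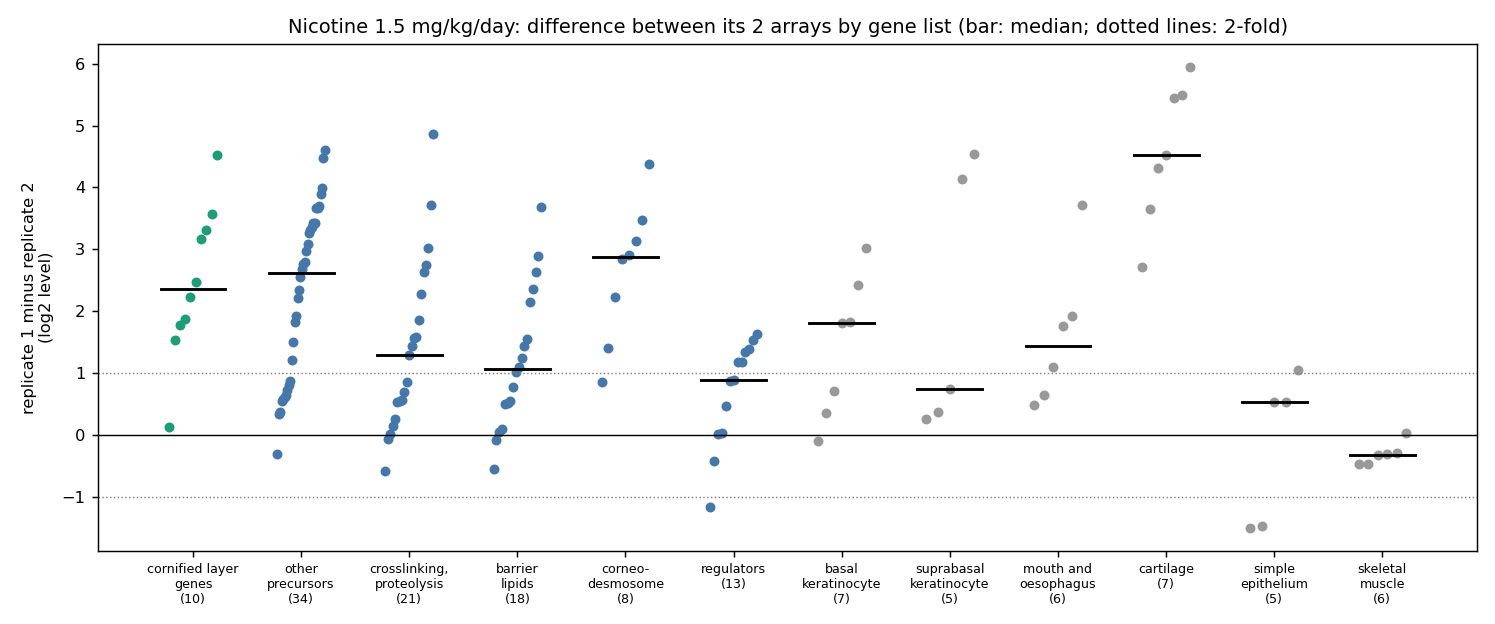
Log2 difference between replicate 1 and replicate 2 of nicotine 1.5 mg/kg/day for the 10 cornified layer genes (green), for 5 lists of other cornification genes (blue) and for marker lists of other cells and tissues (grey), 1 point a gene, with the number of genes measured under each list, the median as a bar and 2-fold as dotted lines. Medians are 2.35 for the 10 genes, 2.61 for other precursors, 2.87 for corneodesmosome genes, 4.53 for cartilage and -0.32 for skeletal muscle.

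Against saline few genes of these lists were called in the limma fit, adjusted over all genes. Of 25 tested precursor genes, 8 corneodesmosome genes and 12 regulators, 0 were called in either direction in any of the 4 comparisons with saline. At an unadjusted p under 0.05 these lists had 3, 2 and 2 genes at 1.5 mg/kg/day, 0, 1 and 3 at 3.0, 1, 1 and 1 at 4.5 and 0, 0 and 2 for the mean of the doses, where the shares over all genes were 21.1%, 25%, 29.2% and 30.8%. Those with the smallest p for the mean of the doses were Lce3b at 0.49, Lor (loricrin, a main envelope protein) at 0.79, Tchh at -0.66 and Sprr2d at 0.62 (limma, adjusted p = 0.206, 0.305, 0.332 and 0.383). Among the junction genes Jup was at 0.69, Dsp (desmoplakin) at -0.84, Cdsn (corneodesmosin) at 1.22 and Pkp1 at 0.73 (adjusted p = 0.181, 0.233, 0.352 and 0.551). The mean for Dsp covers opposite signs, at 1.31 for 1.5 mg/kg/day, -1.76 for 3.0 and -2.07 for 4.5 (limma, adjusted p = 0.2195, 0.108 and 0.0628). Of the regulators, Maf was at -1.09, Cebpb at 0.47, Hopx at 1.03 and Cebpa at 0.57 (adjusted p = 0.0915, 0.0976, 0.172 and 0.311).

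Of 15 tested genes for crosslinking and proteolysis, 2 fell and 0 rose over the mean of the doses, beside 10.2% of all genes called, and 4 had an unadjusted p under 0.05 in limma, beside 30.8% of all genes. A share of this size is near that over all genes. St14 (matriptase, a membrane protease that acts in filaggrin processing) was at 117 and 105 in saline, 36.0 and 30.6 at nicotine 1.5, 26.9 and 24.2 at 3.0 and 11.9 and 18.7 at 4.5. All 6 nicotine arrays were below both saline arrays, and the mean of the doses was -1.56 ± 0.16 (limma, adjusted p = 0.00327), a call kept in all 17 alternatives that tested it. Prss8 (prostasin, a protease that works with matriptase) was at 90.7 and 212 in saline, 47.2 and 55.7 at 1.5, 46.5 and 19.6 at 3.0 and 6.31 and 14.3 at 4.5, a difference of -1.73 ± 0.35 (limma, adjusted p = 0.0313), which was lost without saline replicate 2 (-1.14, adjusted p = 0.112), without either array of nicotine 3.0 or of 4.5 (adjusted p up to 0.0779), without the 2 arrays highest in liver genes (0.107) and with the replicate block (0.0502), and was kept in the other 11 of 18 alternatives. Both enzymes are also made by simple epithelia, whose 5 markers summed to 5403 and 3697 in saline and to 250 to 1349 in the nicotine arrays. The 6 intestine markers summed to 12434 and 7091 in saline and to at most 305 in the nicotine arrays. The part of these tissues in the fall was not tested. Klk13 and Ctsd, the next in this list, were at 0.62 and 0.41 (adjusted p = 0.124 for each). Of 13 tested genes for barrier lipids, Smpd1 (acid sphingomyelinase, which makes ceramide) rose by 0.98 ± 0.24 (limma, adjusted p = 0.0490), a call kept in 3 of 18 alternatives, and Abhd5, Slc27a4 and Lipm were at 0.74, -0.90 and 0.75 (adjusted p = 0.0935, 0.147 and 0.189).

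The genes whose levels followed the mean of the 10 most closely over the 8 arrays were Krt10, Dmkn, 2310011E23Rik, Lce1h, Col17a1, Hebp2, Lce1f, Gm94, Lce1m and Crct1. They were taken among 1641 genes outside the group whose levels spanned at least 2 log2 units, by Pearson correlation, which ran from 0.997 to 0.991. Much of this rests on 1 array, and over the 7 arrays without nicotine 1.5 replicate 1 the same 10 genes, chosen for their likeness, correlated at 0.921 to 0.977. The cornified layer genes themselves did not all vary alike over those 7 arrays. Set against the mean of the other 9, Krtdap and Sbsn were at 0.946 each, Ivl at 0.796, Asprv1 at 0.757, Flg at 0.666 and Tgm3 at 0.371. Casp14 was at -0.002, Calml3 at -0.181, Sprr1a at -0.413 and Tgm1 at -0.811. Krt10 is the main keratin of suprabasal skin cells and Col17a1 a collagen that anchors basal cells.

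Several of the 10 genes are neighbours. In RefSeq (GRCm38.p6) Sprr1a, Ivl and Flg lie on chromosome 3, in the stretch that also holds the Lce genes, and Sbsn and Krtdap lie on chromosome 7 with only Dmkn between them. The others are on chromosomes 2 (Tgm3), 6 (Asprv1), 10 (Casp14), 13 (Calml3) and 14 (Tgm1). Of 19 other genes with a probe set between Sprr1a and Flg, 14 were at least 2-fold higher in nicotine 1.5 replicate 1 than in replicate 2. Their median was 3.36 over the 19, and Dmkn was higher by 3.81. All of the 19 but Smcp, Crct1 and 2310050C09Rik were already counted among the other envelope precursors. The 5 genes that are alone on their chromosomes differed by 0.12 (the Casp14 set in the fit) to 3.57 (Asprv1). The other Casp14 set differed by 3.20.

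Promoters of the genes on chromosomes 3 and 7 are shown because these genes share a neighbourhood and all differed between the arrays of nicotine 1.5, by 2.23 to 4.52 log2 units. Each is the 250 bases before the gene's start in RefSeq (GRCm38.p6), 5′ to 3′ on the gene's strand. Capitals mark matches, searched on both strands, to TATAAA (the TATA box) and TGANTCA (a loose form of the AP-1 motif, with N any base). They are chr3:92485882-92486131 on the minus strand for Sprr1a, chr3:92573736-92573985 on the minus strand for Ivl, chr3:93273296-93273545 on the plus strand for Flg, chr7:30751221-30751470 on the plus strand for Sbsn and chr7:30787655-30787904 on the plus strand for Krtdap.
Sprr1a: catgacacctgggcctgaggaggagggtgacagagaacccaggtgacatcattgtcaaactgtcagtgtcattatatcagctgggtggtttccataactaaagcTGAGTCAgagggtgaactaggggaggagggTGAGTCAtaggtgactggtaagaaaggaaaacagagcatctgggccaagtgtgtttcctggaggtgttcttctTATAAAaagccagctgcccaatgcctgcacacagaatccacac
Ivl: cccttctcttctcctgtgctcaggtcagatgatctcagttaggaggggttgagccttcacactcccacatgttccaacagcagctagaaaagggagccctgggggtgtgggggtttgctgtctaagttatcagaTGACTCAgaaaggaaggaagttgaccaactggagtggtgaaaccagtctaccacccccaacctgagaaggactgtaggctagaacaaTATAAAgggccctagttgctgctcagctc
Flg: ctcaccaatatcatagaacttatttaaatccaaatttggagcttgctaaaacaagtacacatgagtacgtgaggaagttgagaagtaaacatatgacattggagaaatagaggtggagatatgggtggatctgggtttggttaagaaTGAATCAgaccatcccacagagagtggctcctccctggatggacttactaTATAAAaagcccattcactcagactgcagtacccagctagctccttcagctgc
Sbsn: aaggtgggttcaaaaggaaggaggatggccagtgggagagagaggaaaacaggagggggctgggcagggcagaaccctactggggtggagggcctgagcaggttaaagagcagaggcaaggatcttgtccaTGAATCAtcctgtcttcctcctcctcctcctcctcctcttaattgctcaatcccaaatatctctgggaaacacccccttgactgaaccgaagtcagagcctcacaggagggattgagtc
Krtdap: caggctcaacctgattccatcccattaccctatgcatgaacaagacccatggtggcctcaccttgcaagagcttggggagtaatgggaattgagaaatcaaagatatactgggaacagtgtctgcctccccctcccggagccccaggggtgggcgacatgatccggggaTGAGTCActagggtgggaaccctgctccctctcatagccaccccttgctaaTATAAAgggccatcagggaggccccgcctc

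A match to TGANTCA stood in all 5 of these promoters and in none of the other 4 that the table holds (Tgm1, Tgm3, Asprv1 and Casp14), while 6.75% of 32851 RefSeq promoters of the same length hold one. Sprr1a had 2 matches, starting at -146 and -116 from the gene's start, and Ivl, Flg, Sbsn and Krtdap had 1 each, at -116, -103, -119 and -81. The strict AP-1 motif has G or C at N. The matches read TGAGTCA in Sprr1a and Krtdap and TGACTCA in Ivl, but TGAATCA in Flg and Sbsn. The share of all promoters with the strict motif was not counted. TATAAA was found in Sprr1a, Ivl, Flg, Krtdap and Tgm3, 5 of the 9 genes with a promoter sequence, against 12.4% of all promoters. The KLF motif GGGTG stood in all 9 but is common, in 52.0% of all promoters. TTGCNNAA (C/EBP) stood in 3 of 9 against 9.56%, TGACNNNGC (the antioxidant response element) in 2 of 9 against 10.2%, and AACNGGTT (GRHL) in 0 of 9 against 1.79%. Sprr1a, Ivl, Flg and Krtdap hold both patterns in capitals. These matches describe the letters of the window and were not tested as sites.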

How the data were processed

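RNA from newborn mouse palate was measured on 8 Affymetrix arrays, 2 in each of 4 groups taken from the labels. The authors deposited linear intensity values for 45101 probe sets per array. The summarisation and scaling are not given in the sources used here. Of the probe sets, 34945 named 1 gene, 932 several and 9160 none, and 64 were controls. Entrez IDs tied 34741 of the first kind to RefSeq genes.

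Values were taken as log2(intensity + 16) and quantile normalised, since array medians spread by 0.17. Each gene was represented by the probe set with the highest mean level, and genes under the 40th percentile of probe sets (log2 4.94) were left out, which kept 74.7% of genes. limma 3.58.1 in R 4.3.3 fitted the group means of the 8 arrays together (4 residual and 6.85 total degrees of freedom). P-values were two-sided and adjusted by the Benjamini-Hochberg method over 13586 genes, and an adjusted p under 0.05 was counted as a call. Pairs of single arrays were compared by a 2-fold threshold with no test.

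The 10 genes and all gene, marker and motif lists were chosen with earlier results of these data known. All 10 genes are named whatever their result, with up to 4 genes of each pathway list by smallest p for the mean of the doses and the 10 genes most alike in pattern. Alternatives were the added constant, the scaling, the filter, the probe set, the replicate number as a block and left-out arrays. Data were also simulated for nicotine 1.5 against saline (13586 genes, 10 runs). On them the fit recovered 65.9% of 4-fold and 11.6% of 2-fold changes, and 4.91% of its calls were false. The simulated spread was independent between genes and alike in all groups, while tissue markers moved together between the real arrays. These shares may therefore not hold for the real arrays. With 2 arrays a group, their number limits the precision of every value.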

Additional observations from a re-analysis of the deposited data

How the results depend on the processing

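Of 712 alternative values of the 10 genes against saline, 660 kept their direction and their side of the threshold, 27 changed direction, 13 lost and 12 gained a call. None of the 27 passed the test (limma, adjusted p 0.129 to 0.996), and 21 came from leaving out 1 array. The Casp14 call for the mean of the doses, kept under 5 of 18 alternatives (adjusted p 0.0362 to 0.457), left 0 called genes with an added constant of 64, with values as deposited, with the mean of all probe sets, with the probe set of widest span (an alternative chosen after the data were seen) and with the replicate block (0.74, adjusted p = 0.0599). The labels do not say whether replicate numbers pair the samples. Deviations of same-numbered arrays correlated at -0.221 to 0.334 between groups. These values cannot settle it, since tissue markers also differed between the arrays of a group. The replicate block changed no other call among the 10 genes.

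With 1 array left out, called genes ranged from 0 to 3 at 1.5 mg/kg/day and from 0 to 1 for the mean of the doses, and stayed at 0 in the other comparisons. Log2 differences at 1.5 then ranged from -0.083 to 3.24 for Ivl, -0.27 to 1.27 for Tgm1, -0.27 to 1.605 for Calml3 and -1.77 to 0.72 for Sprr1a. At 3.0 they ranged from -0.48 to 1.76 for Flg, -0.61 to 0.39 for Ivl, -0.67 to 0.079 for Tgm1, -0.23 to 1.36 for Krtdap, -0.078 to 1.37 for Sbsn and -0.085 to 0.93 for Asprv1. At 4.5 they ranged from -0.50 to 0.93 for Ivl, -0.31 to 0.089 for Calml3 and -0.16 to 1.42 for Asprv1, and for the mean of the doses from -0.44 to 0.30 for Tgm1 and -0.18 to 0.45 for Calml3. Without the 2 arrays highest in liver genes, called genes numbered 3 at 1.5, 1 at 3.0, 1 at 4.5, 5 from 1.5 to 3.0 and 4 from 1.5 to 4.5, and for the mean of the doses the 1 gene called was Tgm3 in place of Casp14. Sprr1a at 1.5 was then 0.35, Flg at 3.0 -0.48, Tgm1 at 3.0 0.078, Krtdap at 3.0 -0.043, Ivl at 4.5 -0.28 and Tgm1 for the mean of the doses 0.56. The saline array kept there, replicate 1, was still high in liver genes, at 15527 summed over the 6 markers. The cause was not tested. The count of genes at least 2-fold higher in nicotine 1.5 replicate 1 stayed between 7 and 10, and with a filter at the 60th percentile Ivl and Tgm1 were too dim to be kept.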

Other observations

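Sprr1b, the close relative of Sprr1a in the same gene cluster, had an intensity of 463 in nicotine 1.5 replicate 1, against 3.16 to 27.8 across the remaining 7, with both saline arrays (5.16 and 4.54) near the low end, whereas saline replicate 1 was the second highest array for Sprr1a. Calm4, a calcium-binding protein of the upper epidermis, was at 2384 against 18.2 to 178, and Hrnr (hornerin, a relative of filaggrin) at 1638 against 17.8 to 162. Less studied genes also shared the pattern: Gm94 was at 555 against 6.35 to 33.2, and 2310050C09Rik, which lies between Sprr1a and Flg, at 300.1 against 5.30 to 44.2. These genes were chosen after their values were seen.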
